A study of Homo sapiens with 9 samples.

Results

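The transcripts of U-373MG cells exposed to the peptide CBRV1-10493 were compared with those of untreated U-373MG cells. The comparison took its members from the titles of the libraries, 3 labelled with CBRV1-10493 and 3 labelled as control, which are 6 of the 9 libraries of the series. U-373MG is an established human line that its labels describe as glioblastoma and astrocytoma. CBRV1-10493 is a synthetic peptide with a jellyfish origin and a likeness to the toxin ShK, and it was given at 200 nM for 48 h. The control cells received no peptide, and the labels name no vehicle. The other 3 libraries came from cells given NnK-1, a second synthetic peptide of the same kind, at the same dose for the same time, and both peptides share the control libraries. All 9 libraries come from 1 cell line, and cell stocks under this name have in the past been found to derive from another glioblastoma line, and the sources used here do not tell whether the stock was checked. RNA was read at the 3′ ends of messenger RNAs, so a count stands for a molecule's end and not for its length. The design text calls the libraries biological replicates without naming a separate culture for each, so a p-value measures the spread between these libraries, which may be technical.

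ShK is a small sea anemone peptide, held together by disulfide bridges, that plugs the pore of Kv1.3, the voltage-gated potassium channel encoded by KCNA3. Potassium channels set the membrane potential, and through it the drive for calcium entry, the volume of the cell and, in many tumour cells, progress through the cell cycle. In glioma cells calcium-activated potassium channels and volume-regulated chloride channels are known for their part in the changes of shape that go with invasion. The gene groups below follow that path from the membrane inwards. None of this background is a result of these libraries.

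The 6 libraries held between 12090415 and 13491075 counts, and between 15492 and 15968 gene symbols had at least 1 read. Control replicate 2 stood apart in interferon-stimulated genes, and CBRV1-10493 replicate 1 stood apart over many genes. Of the 10650 genes whose mean over these libraries reached 5 CPM (CPM is the count scaled by TMM and by library size), 1124 lay more than 0.5 log2 units from the mean of the other libraries of their group in CBRV1-10493 replicate 1 (437 above, 687 below), against 726 to 871 in the other 5 libraries. On the first principal component of the 6 libraries (25.4% of the variance), CBRV1-10493 replicate 1 lay at 48.0 and the others between -11.4 and -4.75. On the second (20.4%), control replicate 3 lay at -38.7 and the others between -8.89 and 17.3. GTF2H4, a subunit of the repair and transcription factor TFIIH, stood at 6.18 CPM in CBRV1-10493 replicate 1. Replicates 2 and 3 of that group held 18.0 and 20.8 CPM. For the small nucleolar RNA SNORA79 the values were 10.02 CPM in CBRV1-10493 replicate 1 and 4.83 and 2.79 CPM in replicates 2 and 3. Where leaving out any 1 library moved the log2 fold change of a gene described below by over 1.5 times, the value without it, or the range over the libraries left out singly, is given. How the medians of the gene lists moved is given with the lists and at their end. The cells carried the glial and progenitor transcripts of such a line: means over the 6 libraries were 5768 CPM for the intermediate filament VIM, 1149 CPM for the hyaluronan receptor CD44, 591 CPM for the glial transcription factor SOX9, 1428 CPM for the progenitor filament NES and 23.1 CPM for the astrocyte filament GFAP. The astrocyte genes AQP4 (0.04 CPM) and ALDH1L1 (0 CPM), the oligodendrocyte factor OLIG2 (0 CPM) and the leukocyte antigen PTPRC (0 CPM) were at or near 0. Some markers listed for other cell types stood above GFAP. These included CNP (340 CPM) and MBP (33.0 CPM) of the oligodendrocyte list, and MAP2 (174 CPM), ENO2 (131 CPM) and NEFL (61.0 CPM) of the neuron list. Of 14 oligodendrocyte markers 5 reached 5 CPM and 5 had no read. Of 20 neuron markers 6 reached 5 CPM and 1 had no read.

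No gene was called between CBRV1-10493 and control in the main test. Of 13676 genes tested with edgeR's quasi-likelihood test, 0 were higher and 0 lower at an adjusted p under 0.05 (0% called), and DESeq2 and limma-voom also called 0. The exact test of edgeR called 2, SLC16A1-AS1 and LINC01358, and the quasi-likelihood test without a filter on low counts called 1 higher and 5 lower. An unadjusted p under 0.05 was reached by 183 higher (1.34%) and 212 lower genes (1.55%), 395 in all (2.89%), and chance alone would give 684. Every CBRV1-10493 library lay above every control library for 619 genes (4.53%) and below every control library for 606 (4.43%), 1225 in all (8.96%), and the log2 fold change lay above 0 for 50.8% of the genes tested. The text therefore gives levels and intervals, and uses no verb of change for a single gene.

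The intervals say how large a difference these libraries leave room for. For the 10650 genes at 5 CPM or more, the 95% interval of the log2 fold change reached a median of 0.33 to each side. It lay wholly within 2-fold, from -1 to 1, for 10248 of them (96.2%) and within 1.5-fold for 7626 (71.6%). At 100 CPM or more the median reach was 0.21 and 2140 of 2162 genes (99.0%) had an interval within 1.5-fold, whereas from 5 to under 20 CPM this held for 969 of 3535 (27.4%). Below 5 CPM little could be bounded: from 1 to under 5 CPM 280 of 2377 intervals (11.8%) lay within 2-fold, and below 1 CPM 0 of 649 did.

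**Figure D1:**
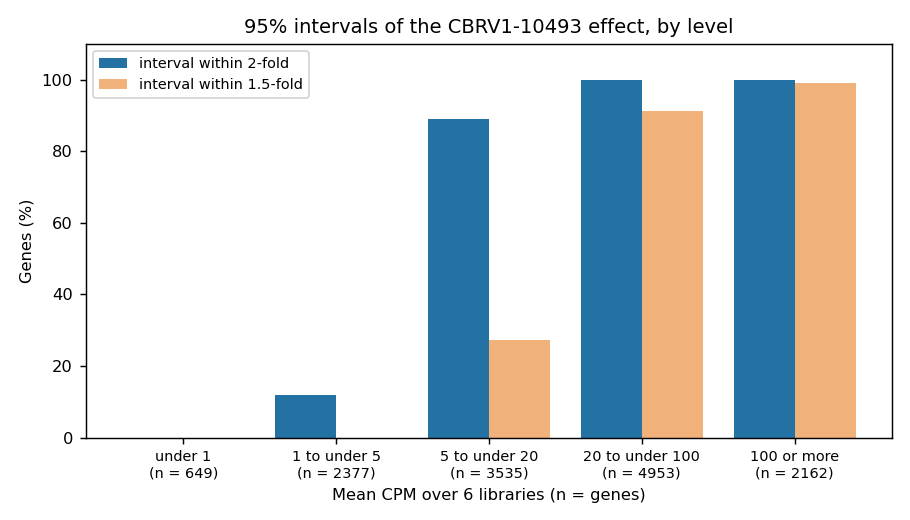
Share of tested genes (%) whose 95% interval for CBRV1-10493 against control lay within 2-fold (blue bars) and within 1.5-fold (orange bars), by mean CPM over the 6 libraries. The share within 1.5-fold was 99.0% at 100 CPM or more, 27.4% from 5 to under 20 CPM and 0% below 5 CPM.

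At 5 CPM or more 7 estimates passed 2-fold, each of them lower with CBRV1-10493. They belonged to the interferon-stimulated genes IFI44L, BST2 and MX1, the uncharacterised transcript LOC100129940, the zinc-finger factor TSHZ3, the small Cajal body RNA SCARNA18 and the lysosomal transporter MFSD12. The groups overlapped for IFI44L, BST2, MX1 and SCARNA18 and did not for the other 3. These genes are named from their values as a description. Of the 395 genes at an unadjusted p under 0.05, 199 (50.4%) were still there without control replicate 2, 176 (44.6%) without CBRV1-10493 replicate 1 and 102 (25.8%) without both. Their direction was kept by 394, 395 and 392 genes. Without control replicate 3, 225 (57%) were still there. CBRV1-10493 replicate 1 was the library farthest from the control mean in 103 of the 183 higher and 102 of the 212 lower genes.

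**Figure D2:**
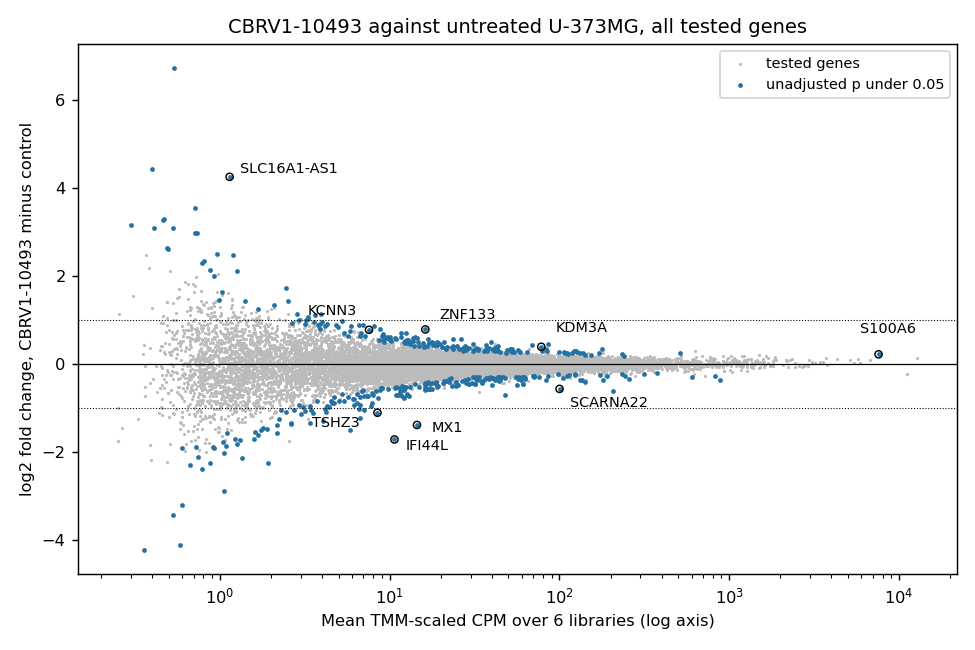
Log2 fold change (CBRV1-10493 minus control) of each tested gene against its mean CPM on a log axis, with genes at an unadjusted p under 0.05 in blue and dotted lines at 2-fold. No gene was called, and the estimates spread widely only below 5 CPM, while 90% of the genes at 5 CPM or more lay between -0.30 and 0.28.

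At 5 CPM or more the groups did not overlap for 479 genes higher (4.5%) and 448 lower (4.21%) with CBRV1-10493. The 10 of each with the largest fold change were transcripts at the low end of that range. ZNF133, a zinc-finger repressor of transcription, stood at 11.1, 13.4 and 11.03 CPM in the control libraries and at 23.9, 17.7 and 20.2 CPM with CBRV1-10493, or 0.79 on the log2 scale (95% interval 0.35 to 1.24, n = 3). KIAA0922, the membrane protein now called TMEM131L, stood at 6.41, 5.10 and 5.55 against 9.35, 10.3 and 11.5 CPM (0.87, interval 0.34 to 1.40). In both genes the lowest treated library lay well above the highest control library. COQ10A, a mitochondrial protein that binds coenzyme Q, stood at 5.53, 4.63 and 4.44 against 8.68, 7.21 and 11.3 CPM (0.90, interval 0.32 to 1.48). C9orf135, a ciliary protein now called CFAP95, stood at 4.57, 4.24 and 4.96 against 7.93, 9.34 and 8.37 CPM (0.90, interval 0.30 to 1.49). MED12L, a paralogue of a subunit of the Mediator kinase module, stood at 8.58, 5.02 and 5.55 against 8.93, 11.7 and 12.97 CPM (0.81, interval 0.26 to 1.36). Here the groups almost touched, at 8.58 and 8.93 CPM.

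The 10 with the largest positive fold change held 5 more genes. TTC30B, a component of intraflagellar transport now called IFT70B, stood at 2.00, 4.08 and 4.44 against 7.93, 5.65 and 7.47 CPM (1.00, interval 0.25 to 1.74). ARMCX2 (0.72) and LINC01279, which the annotation now places under the matrix gene CCDC80 (0.76), had intervals that began at 0.10 and 0.14. For DCLRE1A, a nuclease of DNA crosslink repair, the interval held 0 (0.73, interval -0.09 to 1.54), and the estimate was 0.44 without control replicate 3. The potassium channel gene KCNN3 belonged to this set too and is described with the channels.

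The smallest p-values on the higher side included abundant and very scarce transcripts. FPR1, the formyl peptide receptor, stood at 21.8, 24.2 and 17.5 CPM in control cells and at 36.1, 27.02 and 32.0 CPM with the peptide (0.58, interval 0.24 to 0.93). NCOA1, a coactivator of nuclear receptors, stood at 77.5, 80.7 and 56.0 against 105.4, 95.1 and 96.4 CPM (0.47, interval 0.19 to 0.75). PPM1D, a p53-induced phosphatase that dampens p53 signalling, stood at 15.2, 19.5 and 21.9 against 27.4, 31.5 and 25.5 CPM (0.58, interval 0.23 to 0.93). In these 3 genes the groups were apart while single libraries came close, such as 24.2 against 27.02 CPM for FPR1. GCOM1, at 61.3, 54.6 and 59.6 against 90.2, 73.2 and 73.9 CPM (0.43), overlaps MYZAP and POLR2M, and with the handling of overlapping genes unstated in the sources used here its value is uncertain. The gene with the smallest p, SLC16A1-AS1, had 3, 0 and 1 counts in the control libraries and 40, 24 and 15 with CBRV1-10493, or 4.26 on the log2 scale (interval 2.35 to 6.18). Its adjusted p was 0.00208 in edgeR's exact test. It is an antisense RNA at the gene of a lactate transporter, and the sources used here do not tell whether counting used strand. LINC01358 had no count in the control group and 39 over the CBRV1-10493 libraries, at least 13.8-fold higher against a floor of 3 counts over the group, and the pseudogene LAMB2P1 (4.43, interval 1.54 to 7.33) had 0.768 ± 0.306 against 0.0267 ± 0.0463 CPM (mean ± SD, n = 3).

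On the lower side the groups of TSHZ3 lay far apart. This zinc-finger factor stood at 10.98, 10.4 and 13.3 CPM in control cells and at 6.09, 4.75 and 5.34 CPM with CBRV1-10493, or -1.10 on the log2 scale (interval -1.66 to -0.54, n = 3). SFI1, a centrosomal protein, stood at 8.66, 13.03 and 9.11 against 3.84, 5.81 and 6.24 CPM (-0.95, interval -1.63 to -0.28). Both genes kept a gap between the groups. MFSD12, a transporter of lysosomes and melanosomes, stood at 10.5, 8.40 and 7.63 against 3.76, 3.19 and 6.16 CPM (-1.01), and LOC100129940 at 11.1, 8.71 and 8.29 against 4.09, 5.08 and 2.96 CPM (-1.21).

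Several of the other lower genes act on DNA or in signalling. SAMHD1, which hydrolyses deoxynucleotides, stood at 6.09, 8.55 and 4.81 against 3.26, 4.09 and 3.53 CPM (-0.84, interval -1.52 to -0.15). STAT5A, a transcription factor of cytokine receptors that overlaps STAT5B, stood at 7.14, 6.36 and 7.11 against 4.17, 3.93 and 3.53 CPM (-0.82, interval -1.56 to -0.08). POLM, a polymerase of double-strand break repair, stood at -0.78 on the log2 scale and at -0.45 without control replicate 2. The long non-coding RNA LINC00938 (-0.87) and the pseudogene UBE2Q2P1 (-0.88) complete the 10 with the largest negative fold change.

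Of the genes with the smallest p on the lower side, SCARNA22 had the most counts behind its value. This small Cajal body RNA, which lies within NSD2, stood at 109, 129 and 120 CPM in control cells and at 77.2, 93.8 and 72.2 CPM with the peptide (-0.56, interval -0.82 to -0.29). CCDC66, a centrosome and cilium protein whose gene overlaps TASOR, stood at 14.4, 19.1 and 14.7 against 9.85, 10.4 and 9.03 CPM (-0.72, interval -1.16 to -0.28). Both overlap other genes, so their counts carry the same uncertainty as GCOM1. The others were scarce: LRRC48, an axonemal protein now called DRC3 (0.882, 1.10 and 0.962 against 0.0835, 0.164 and 0 CPM), SNORA25 within TAF1D (-2.25), LOC100506022 (-2.87) and FTO-IT1 within FTO (-4.11, and -6.79 without CBRV1-10493 replicate 2). All 32 genes named so far for their distance or p kept their sign under each of the 17 or 18 alternatives that could test them, a direction that the choice of genes with separate groups helps to fix.

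**Figure D3:**
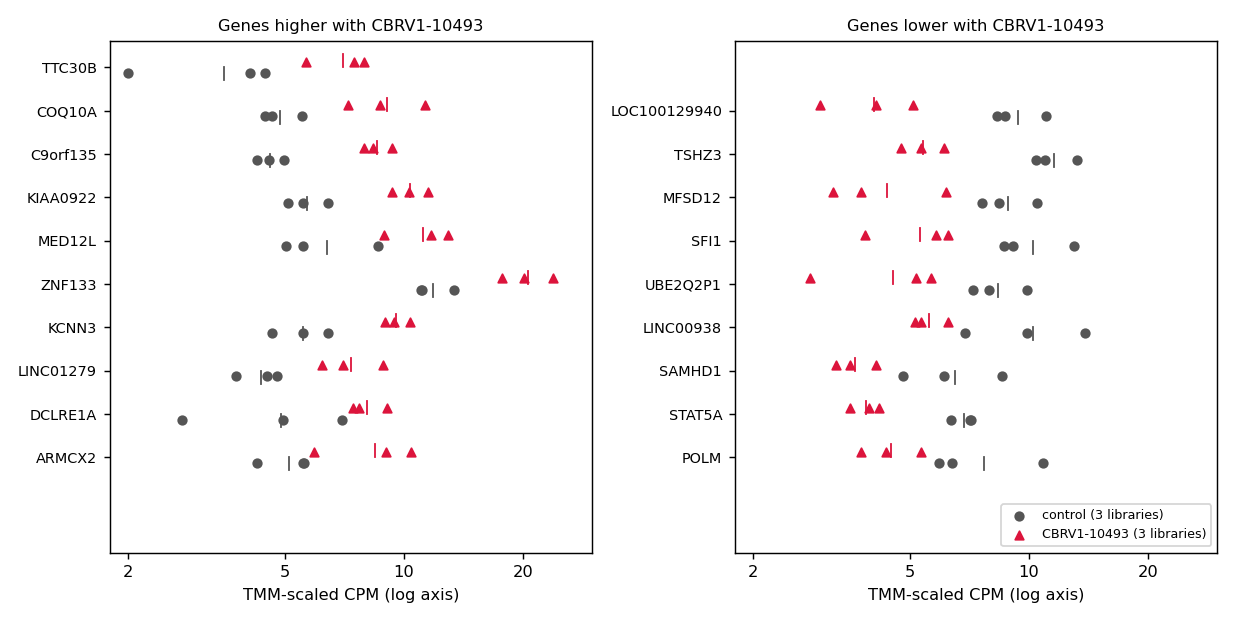
Level in each library (CPM, log axis) of genes among the 10 with the largest positive (left) and negative (right) log2 fold changes at 5 CPM or more with separate groups; points are libraries and ticks are group means. ZNF133 spanned 11.03 to 13.4 CPM in control libraries and 17.7 to 23.9 CPM with CBRV1-10493, and TSHZ3 10.4 to 13.3 CPM and 4.75 to 6.09 CPM.

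The first question for a ShK-like peptide concerns its known target and the channels beside it. KCNA3, the gene of Kv1.3, had 0 counts in all 6 libraries, which allows up to 0.0775 CPM in the control group and 0.0825 CPM in the CBRV1-10493 group (3 counts over the group, for counting error only). Of 40 genes of voltage-gated potassium channels, 25 had no read in any of the 6 libraries, 5 were tested and 1 reached 5 CPM. That one was KCNS3, a modulatory subunit that forms no channel alone, at 27.4, 21.3 and 25.2 CPM in control cells and 18.5, 23.2 and 21.4 CPM with CBRV1-10493 (-0.23, interval -0.59 to 0.13). Its groups overlapped, and the value was -0.15 without CBRV1-10493 replicate 1 and -0.14 without control replicate 1. KCNC4 (0.67, interval -0.84 to 2.19), KCNQ5 (0.43, interval -0.96 to 1.81) and KCND1 (-0.99, interval -3.63 to 1.65) were too scarce to bound within 2-fold, and all reads of KCND1 with the peptide came from CBRV1-10493 replicate 1. KCNQ5 ran from 0.055 to 0.71 with 1 library left out, and KCND1 from -1.56 to -0.23 when that 1 was any other library.

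Calcium-activated potassium channels open when calcium enters the cell, and 4 of the 5 tested genes reached 5 CPM. KCNN3, the small-conductance channel SK3, stood at 4.65, 6.44 and 5.55 CPM in control cells and at 10.4, 9.42 and 8.95 CPM with CBRV1-10493, or 0.79 on the log2 scale (interval 0.24 to 1.34, n = 3). Every treated library lay above every control library, and the value was 0.91 without control replicate 2 and 0.72 without CBRV1-10493 replicate 1. It did not pass the adjusted test. KCNN4, the intermediate-conductance channel KCa3.1, stood at 17.7, 16.2 and 17.5 against 19.2, 17.1 and 21.6 CPM (0.17, interval -0.19 to 0.53, and 0.079 without CBRV1-10493 replicate 3). KCNMA1, the large-conductance channel, stood at 168, 162 and 181 against 201, 173 and 172 CPM (0.09, interval -0.12 to 0.31), and at 0.016 without CBRV1-10493 replicate 1 and 0.0605 without control replicate 2. For KCNMA1 the interval excludes a 1.5-fold difference in either direction. Over the 5 tested genes of this list 4 lay above 0 and the median was 0.17, beside a median of 0.0027 over all tested genes. Of the inward rectifiers KCNJ2 stood at 3.05, 5.10 and 2.15 against 6.93, 3.52 and 7.31 CPM (0.79, interval -0.15 to 1.72, and 1.19 without control replicate 2), with overlapping groups.

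Transporters and chloride channels that act with potassium channels in volume control lay close to 0. Of 16 tested genes of the sodium pump and cation-chloride cotransporters 10 lay above 0 (median 0.03), and of 20 chloride and volume-regulated anion channel genes 10 did (median 0.00); none had an unadjusted p under 0.05. LRRC8A, the essential subunit of the volume-regulated anion channel, stood at 116, 118 and 123 against 144, 124 and 127 CPM (0.14, interval -0.07 to 0.36, and 0.069 without CBRV1-10493 replicate 1). Its partner LRRC8C stood at 12.99, 12.7 and 14.2 against 16.1, 17.7 and 15.9 CPM (0.32, interval -0.06 to 0.70). Both had groups that did not overlap, as 4.53% of all tested genes did on the higher side. CLIC1, a chloride intracellular channel protein of the same list, stood on the other side of 0, at 102, 54.6 and 64.8 against 43.6, 52.7 and 74.95 CPM (-0.37, interval -0.81 to 0.08). Its groups overlapped, and it ran from -0.62 to -0.065 with 1 library left out. Of 32 tested genes of calcium entry, calcineurin and NFAT, 20 lay above 0 with a median of 0.03. ORAI3, a pore subunit of store-operated calcium entry, stood at 0.29 (interval -0.08 to 0.66, and 0.17 without control replicate 1). The calcineurin subunit PPP3R1 stood at -0.17 (interval -0.40 to 0.06), and at -0.072 without CBRV1-10493 replicate 1 and -0.26 without replicate 2. The kinase CAMK2G stood at -0.33 (interval -0.76 to 0.10), and at -0.54 and -0.15 without these same libraries.

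Interferon-stimulated genes, the antiviral effectors that cells switch on after interferon binds its receptor, held 3 of the 7 estimates past 2-fold, and these rested on 1 control library. Of 42 tested members 12 lay above 0 and 30 below, with a median log2 fold change of -0.14. An unadjusted p under 0.05 was found for 5 members, all lower, where 1.55% of all tested genes were lower at that p. IFI44L stood at 3.85, 39.0 and 6.22 CPM in the control libraries and at 4.17, 7.21 and 3.61 CPM with CBRV1-10493 (-1.71, interval -2.89 to -0.53). MX1, an antiviral GTPase, stood at 6.57, 47.6 and 8.66 against 6.68, 12.4 and 5.01 CPM (-1.38, interval -2.44 to -0.31). BST2, a tether that holds budding virus on the membrane, stood at 3.45, 17.5 and 4.96 against 1.17, 4.67 and 3.37 CPM (-1.49, interval -2.59 to -0.39). In each of them control replicate 2 was the high library and the other 2 control libraries lay among the treated ones or just above. The same library stood out in ISG15 (79.2 CPM against 19.2 and 24.4 CPM in the other control libraries), a ubiquitin-like modifier, and in IFITM1 (60.0 CPM against 19.1 and 21.6 CPM), which blocks virus entry.

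Without control replicate 2 the list no longer lay below 0. Its median was then 0.05 with 24 of 42 members above 0, and 0.08 with 30 above 0 when CBRV1-10493 replicate 1 was left out as well. For single genes the value without control replicate 2 was -0.012 for IFI44L, 0.078 for MX1, -0.45 for BST2 and -0.11 for IFI6. Control replicate 2 was the highest of the 6 libraries in 33 of the 42 members, and above 2 times every other library in 10. The summed level of all 47 symbols found for this list, tested or not, was 1626, 2278 and 1718 CPM in the control libraries. With CBRV1-10493 it was 1657, 1774 and 1724 CPM. Markers of leukocytes and microglia summed to between 4.9 and 9.3 CPM in every library, with PTPRC at 0. Why control replicate 2 stood apart was not tested.

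**Figure D4:**
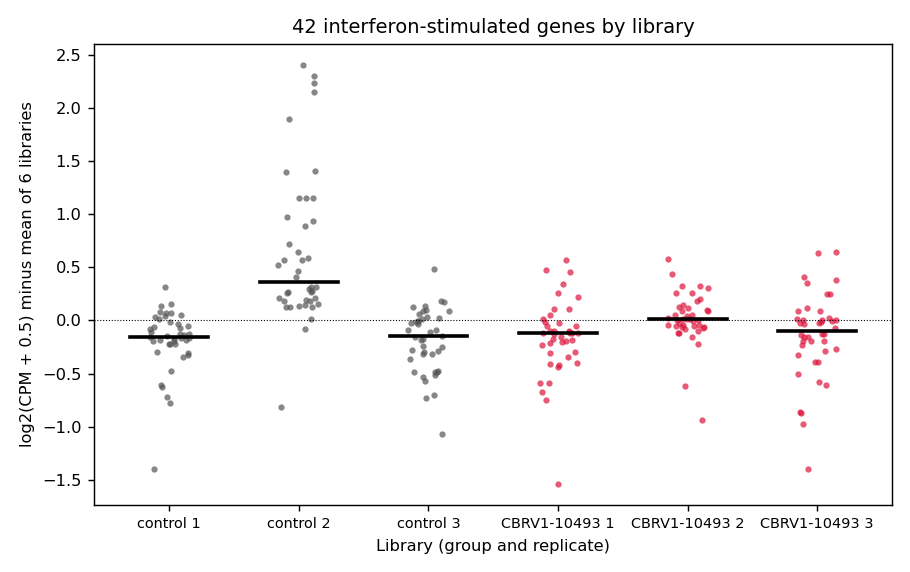
Level of 42 interferon-stimulated genes in each of the 6 libraries, as log2(CPM + 0.5) minus the gene's mean over the 6; points are genes and bars are medians. Control replicate 2 is the highest library in 33 of 42 members, and without it the list's median is 0.05.

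Other genes of innate immunity lay near 0. MHC class I presentation had 11 of 19 members above 0 (median 0.02), and 6 of 19 with a median of -0.024 without CBRV1-10493 replicate 1. NF-kB targets and cytokines had 14 of 24 above 0 (median 0.04). Neither list had a member at an unadjusted p under 0.05. PSME2, a subunit of the proteasome activator PA28, stood at -0.24 (interval -0.61 to 0.14) and ran from -0.41 to -0.13 with 1 library left out. CSF1, a growth factor of macrophages that many gliomas secrete, stood at 81.6, 87.7 and 88.4 CPM in control cells and at 100.02, 97.2 and 95.3 CPM with CBRV1-10493 (0.18, interval -0.03 to 0.40). Its groups did not overlap, and the interval excludes a 1.5-fold difference. IER3, an early response gene of NF-kB, stood at 13.6, 12.2 and 10.96 against 15.4, 13.7 and 16.2 CPM (0.30, interval -0.10 to 0.70). CD70, a ligand of the TNF family that lies outside the lists and was picked after its values were seen, stood at 371, 203 and 176 against 95.9, 176 and 222 CPM (-0.60, interval -1.13 to -0.08). Its groups overlapped, with control replicate 1 the highest and CBRV1-10493 replicate 1 the lowest, and leaving these out singly gave -0.20 and -0.33.

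Signalling genes that respond within hours to calcium or growth factors lay on both sides of 0 after 48 h. Immediate-early and AP-1 genes had 14 of 33 members above 0 (median -0.02), YAP/TEAD targets 16 of 29 (0.00), TGF-beta and SMAD genes 15 of 36 (-0.02) and the Notch pathway 12 of 28 (-0.02). ATF3, a stress-inducible member of the AP-1 family, stood at 38.8, 26.9 and 31.7 CPM in control cells and at 62.8, 38.4 and 38.0 CPM with CBRV1-10493 (0.51, interval 0.10 to 0.93). The highest value came from CBRV1-10493 replicate 1, and without it the log2 fold change was 0.23. SPRED1, an inhibitor of Ras signalling, stood at 32.5, 26.3 and 31.7 against 20.4, 22.6 and 26.8 CPM (-0.37, interval -0.71 to -0.04). IGFBP3, which binds insulin-like growth factors, stood at 38.2, 39.1 and 36.1 against 41.7, 52.8 and 47.3 CPM (0.32, interval 0.01 to 0.63). Both intervals left out 0 by a small margin, and neither gene passed the adjusted test. SMAD5, a mediator of BMP signals, stood at 0.20 (0.13 without CBRV1-10493 replicate 1), the receptor TGFBR2 at -0.57 (interval -1.17 to 0.02) and the Notch coactivator MAML2 at -0.31 (-0.20 without CBRV1-10493 replicate 1).

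Receptor tyrosine kinases had 17 of 27 members above 0 and a median of 0.09, which was -0.014 without CBRV1-10493 replicate 1. EGFR, the receptor most often altered in glioblastoma, stood at 39.4, 44.0 and 43.5 CPM in control cells and at 49.1, 49.95 and 52.3 CPM with CBRV1-10493 (0.25, interval -0.05 to 0.55). Its groups did not overlap and the value lay between 0.20 and 0.28 when any 1 library was left out, yet the interval holds 0. EPHA2, an ephrin receptor, stood at 105.4, 72.1 and 42.5 against 94.1, 90.9 and 115 CPM (0.45, interval -0.11 to 1.00) and ranged from 0.17 to 0.80 when 1 library was left out.

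Metabolic genes gave small medians that lay mostly above 0. Cholesterol synthesis had 21 of 27 members above 0 with a median of 0.08, and 18 of 27 with a median of 0.04 without both libraries that stood apart. SCAP, the sterol sensor that escorts SREBP, stood at -0.21 (interval -0.46 to 0.03). MVD, the decarboxylase of the mevalonate pathway, stood at 0.46 (interval -0.10 to 1.02) and at 0.22 without CBRV1-10493 replicate 3 and 0.29 without control replicate 1. No member had an unadjusted p under 0.05. Nuclear-encoded subunits of the respiratory chain had 57 of 77 members above 0 with a median of 0.05, and 41 of 77 with a median of 0.016 without both libraries. NDUFA1, a subunit of complex I, stood at 384, 373.3 and 372 CPM against 435, 407 and 390 CPM (0.12, interval -0.05 to 0.30, and 0.079 without CBRV1-10493 replicate 1), and ATP5C1, the gamma subunit of ATP synthase, at 100.1, 96.5 and 95.6 against 115, 105.5 and 104 CPM (0.15, interval -0.06 to 0.36). In both the groups were apart by a few percent only.

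Glycolysis and hypoxia genes had 25 of 42 members above 0 (median 0.03) and fatty acid genes 13 of 27 (median 0.00). KDM3A, a histone demethylase induced by hypoxia, stood at 63.7, 66.5 and 72.0 CPM in control cells and at 106, 77.2 and 83.4 CPM with CBRV1-10493 (0.40, interval 0.15 to 0.65), and at 0.25 without CBRV1-10493 replicate 1. CA9, a carbonic anhydrase that is among the most hypoxia-responsive genes, stood at 24.3, 10.99 and 9.99 against 17.2, 18.0 and 29.1 CPM with overlapping groups (0.51, interval -0.19 to 1.20). It was 0.22 without CBRV1-10493 replicate 3, 0.32 without control replicate 2, 0.28 without control replicate 3 and 1.03 without control replicate 1. AGPAT2, an enzyme of phospholipid and triglyceride synthesis, stood at 40.0, 41.1 and 39.5 against 29.4, 31.9 and 32.8 CPM (-0.36, interval -0.63 to -0.09). It lay between -0.39 and -0.30 under all 18 alternatives. ME1, the cytosolic malic enzyme, had 27, 12 and 47 counts in control cells and 0, 13 and 5 with the peptide (-2.13, interval -4.03 to -0.24). Its groups overlapped, and it stood at -3.35 without CBRV1-10493 replicate 2. SCD, the stearoyl-CoA desaturase, stood at 709, 739 and 736 against 827, 836 and 776 CPM (0.16, interval -0.02 to 0.34).

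The median of the mitotic genes lay slightly below 0 under all 13 settings. In all, 14 of the 42 lists with 5 or more tested members kept the sign of their median under all settings. Of 66 tested G2/M genes 20 lay above 0 and 46 below, where 50.8% of all tested genes lay above 0, and the median was -0.06. It stayed between -0.074 and -0.042 over those settings. Of the 66 genes 3 had an unadjusted p under 0.05, all lower, where 1.55% of all tested genes were lower at that p. PTTG1, the securin that holds sister chromatids together until anaphase, stood at 191, 174 and 201 CPM in control cells and at 160, 162 and 157 CPM with CBRV1-10493 (-0.24, interval -0.43 to -0.04). TACC3, a spindle protein, stood at 233, 250 and 267 against 223, 215 and 205 CPM (-0.22, interval -0.41 to -0.03). KIF11, the motor that separates spindle poles, stood at 51.9, 49.8 and 50.7 against 36.4, 46.2 and 42.4 CPM (-0.29, interval -0.56 to -0.01). All 3 had every treated library below every control library, and each upper bound lay close to 0. In the whole list the groups did not overlap for 5 genes lower and 2 higher. Over all tested genes these shares were 4.43% lower and 4.53% higher. In bulk RNA fewer cells in mitosis and less of these RNAs per cell cannot be told apart. Genes of G1 and S phase had 24 of 53 members above 0 (median -0.03) and none at an unadjusted p under 0.05. MCM6, a subunit of the replicative helicase, stood at 0.24 (interval -0.01 to 0.49), the CDK inhibitor CDKN1B at 0.32 (interval -0.01 to 0.64) and the clamp loader subunit RFC5 at -0.23 (interval -0.48 to 0.02, and -0.12 without control replicate 2).

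Cell death genes were split evenly around 0. Of 30 tested p53 targets 15 lay above 0 (median 0.00), PPM1D among them, and of 33 apoptosis regulators 16 did (median 0.00). CASP8, the initiator caspase of death receptors, stood at 12.2, 8.95 and 7.55 CPM in control cells and at 13.4, 16.9 and 16.5 CPM with CBRV1-10493 (0.71, interval 0.11 to 1.30, and 0.80 without CBRV1-10493 replicate 1). CASP4, an inflammatory caspase, stood at 20.9, 16.9 and 17.5 against 26.5, 23.8 and 20.9 CPM (0.36, interval 0.01 to 0.71). The groups were apart for CASP8 and met at 20.9 CPM for CASP4. BID, which CASP8 cleaves to reach the mitochondrion, stood at -0.23 (interval -0.52 to 0.06), and PMAIP1, the p53 target NOXA, at 0.21 (interval -0.07 to 0.49, and from 0.11 to 0.34 with 1 library left out).

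Stress pathways gave medians between 0.00 and 0.05. The integrated stress response through ATF4 had 22 of 33 members above 0 (0.03), chaperones of the endoplasmic reticulum 15 of 31 (0.00), heat shock genes 16 of 30 (0.02), NRF2 and antioxidant genes 29 of 40 (0.04) and lysosome and autophagy genes 31 of 47 (0.05). The median of the last list was 0.016 without control replicate 2, 0.0125 without CBRV1-10493 replicate 1 and 0.0091, with 25 of 47 above 0, without both. HSPB1, a small heat shock protein, stood at -0.22 (interval -0.51 to 0.07) and ran from -0.37 to -0.058 with 1 library left out. DERL1, a channel for the disposal of misfolded proteins, stood at 109, 108 and 115 against 133, 123 and 126 CPM (0.20, interval -0.02 to 0.42). PHGDH, the first enzyme of serine synthesis and a target of ATF4, stood at 79.9, 82.2 and 83.3 against 86.9, 92.5 and 92.9 CPM (0.15, interval -0.07 to 0.37). In both the groups were apart, by less than 1.5-fold at either end of the interval. TALDO1, of the pentose phosphate pathway, stood at 0.17 (interval -0.05 to 0.39) and the ferritin chain FTH1 at 0.14 (0.066 without CBRV1-10493 replicate 1). The chaperone HYOU1 stood at 137, 133 and 131 against 86.8, 131 and 129 CPM (-0.21), and at -0.044 without CBRV1-10493 replicate 1.

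CBRV1-10493 replicate 1 also weighed on the values of the structural transcripts FLNA and COL6A2. For the ribosomal protein gene RPS3, leaving out control replicate 1 moved the value further than leaving out CBRV1-10493 replicate 1. Ribosomal protein genes had 48 of 79 members above 0 (median 0.03, and 38 with a median of -0.0091 without control replicate 2), actomyosin and focal adhesion genes 26 of 52 (0.00), matrix genes 20 of 42 (0.00) and matrix proteases with their inhibitors 24 of 31 (0.05, and 17 of 31 with a median of 0.012 without CBRV1-10493 replicate 1). In that last list ADAM15, a membrane metalloprotease, had the smallest p and lay below 0 (-0.43, interval -0.89 to 0.03), and it stood at -0.18 without CBRV1-10493 replicate 1 and -0.22 without control replicate 1. FLNA, the actin crosslinker filamin A, stood at 946, 846 and 901 CPM in control cells and at 612, 816 and 820 CPM with the peptide (-0.26, interval -0.47 to -0.05). COL6A2, a chain of collagen VI, stood at 137, 157 and 153 against 83.8, 124 and 141 CPM (-0.36, interval -0.65 to -0.07). The low library was CBRV1-10493 replicate 1 in both, and without it the values were -0.14 for FLNA and -0.17 for COL6A2. The ribosomal protein gene RPS3 stood at 1307, 829 and 850 against 579, 862 and 899 CPM (-0.35), and at -0.18 without CBRV1-10493 replicate 1 and -0.11 without control replicate 1. ITGB8, the integrin chain that activates latent TGF-beta, was steadier, at 153, 158 and 167 against 180, 181 and 175 CPM (0.16, interval -0.02 to 0.35).

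Markers of cell identity lay on both sides of 0, and none was called. Of 14 tested astrocyte markers 7 lay above 0 (median 0.02), of 12 neural progenitor markers 6 (-0.01) and of 25 mesenchymal glioblastoma markers 18 (0.04). GLUL, the astrocyte enzyme that makes glutamine, stood at 119, 120 and 112 against 149, 124 and 129 CPM (0.20, and 0.11 without CBRV1-10493 replicate 1), and CLU, a secreted chaperone, at 65.5, 76.4 and 71.1 against 60.9, 63.5 and 61.2 CPM (-0.20, interval -0.47 to 0.07). S100A6, a calcium-binding protein, stood at 7294, 6757 and 6880 against 9391, 7580 and 7554 CPM (0.23, interval 0.06 to 0.40) and at 0.12 without CBRV1-10493 replicate 1. MYRF, a transcription factor of myelinating cells that is listed with oligodendrocyte markers, stood at 17.2, 14.0 and 18.8 against 20.5, 26.2 and 22.3 CPM (0.47, interval 0.10 to 0.84, and 0.54 without CBRV1-10493 replicate 1). Its groups did not overlap, while SOX10 and OLIG2 of the same list were not among the genes tested. The 20 listed reference genes, housekeeping genes often used to scale PCR data, ranged from -0.15 (TBP, and -0.083 without control replicate 3) to 0.27 (IPO8), and all 20 intervals lay within 1.5-fold.

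**Figure D5:**
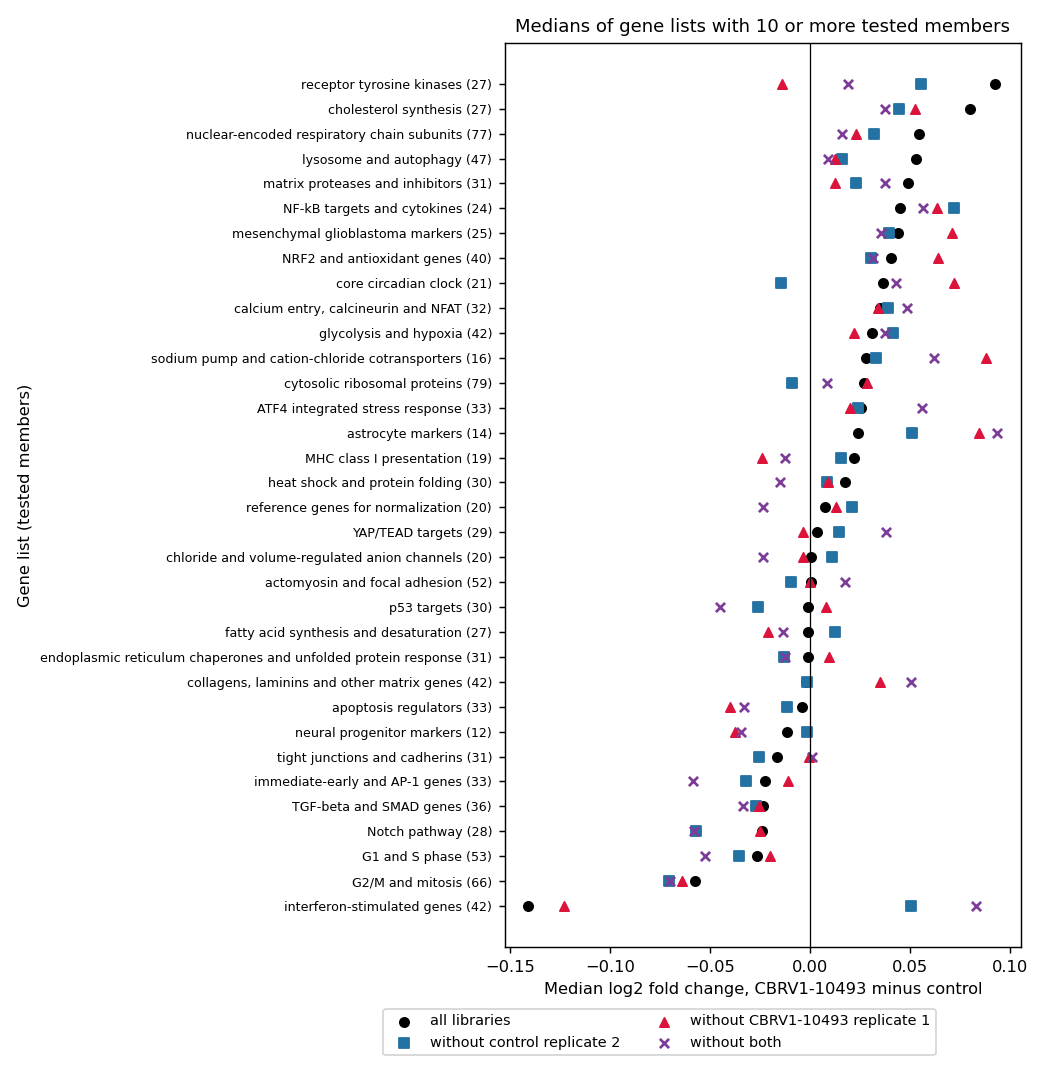
Median log2 fold change (CBRV1-10493 minus control) of each list with at least 10 tested members. Values are with all libraries (circles), without control replicate 2 (squares), without CBRV1-10493 replicate 1 (triangles) and without both (crosses). With all libraries the medians of lists with at least 10 tested members lay between -0.14 (interferon-stimulated genes) and 0.09 (receptor tyrosine kinases).

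Over the 34 lists with at least 10 tested members the medians ran from -0.14 to 0.09, and no list held a called gene. The sign of the median was kept by 29 of them without control replicate 2, by 26 without CBRV1-10493 replicate 1, by 27 without both and by 29 without control replicate 3. In 30 of the 34 the median moved by over 1.5 times or changed sign in at least 1 of the first 3 of these settings. The median of the G2/M genes alone stayed within 1.5 times of its value in all 7 settings that left out 1 library or both. Most of these medians lay within a few hundredths of 0, where a sign carries little.

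Set beside the other jellyfish peptide, CBRV1-10493 differed from NnK-1 by an unadjusted p under 0.05 in 589 genes (4.31%), and edgeR's quasi-likelihood test called 0 of 13676 between them, with a smallest adjusted p of 0.994. Both peptides were given at 200 nM for 48 h. KCNN3 stood at 0.79 with CBRV1-10493 and 0.08 with NnK-1, each against the shared control libraries, a difference between the peptides of 0.71 on the log2 scale that did not pass (adjusted p = 0.994). TSHZ3 stood at -1.10 and -1.06 with the respective peptides, ZNF133 at 0.79 and 0.52, and PPM1D at 0.58 and 0.56. MYRF stood at 0.47 with CBRV1-10493 and -0.05 with NnK-1, and TACC3 at -0.22 and 0.00. Since the control libraries are shared, likeness between these pairs of values is no independent support, and where they differ no gene passed the test of the difference.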

How the data were processed

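Each deposited file holds the authors' raw read counts per gene symbol for 1 library, with no normalization. The submitters' processing notes name Bowtie2, bedtools and hg19; the sources used here give no versions, annotation or counting options. Lexogen's QuantSeq kit was used, per the labels. Of 25737 entries, those of a shared symbol (286 symbols) were summed to 24462. Genes were kept by filterByExpr of edgeR 4.0.16 (R 4.3.3) over the 9 libraries, leaving 13676. TMM scaling and a quasi-likelihood fit with 1 coefficient a group gave two-sided tests, adjusted by Benjamini and Hochberg's method over all tested genes and called under 0.05. The common biological coefficient of variation was 0.169. Intervals are 95% intervals from that fit, CPM values are TMM-scaled, and every gene named has n = 3 libraries a group. All pairs of the 6 libraries differed by more than sampling noise.

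The genes named are those at 5 CPM or more with separate groups and the 10 largest fold changes each way, the 8 smallest p each way among genes with separate groups, up to 3 members of each list with the smallest p at 1 CPM or more, and every tested voltage-gated potassium channel; some of these are not reported here. The members and the 44 lists were chosen with earlier results of these data known. Older symbols were matched to RefSeq by name only. Alternatives were other scalings (DESeq2 size factors, upper quartile), other filters, the 6 libraries alone, a replicate block, each library left out, DESeq2 1.42.0, edgeR's exact test, limma-voom (limma 3.58.1) and unsummed symbols; voom with library quality weights was added after seeing the data. The test was checked on simulated data.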

Additional observations from a re-analysis of the deposited data

How the results depend on the processing

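Counts of called genes stayed at 0 except in 2 settings. When low counts were not filtered the quasi-likelihood test of edgeR called 1 gene higher (SLC16A1-AS1) and 5 lower (IFI44L, MX1, CD70, SCARNA22 and IFI6), with 316 higher and 341 lower at an unadjusted p under 0.05; edgeR's exact test called 2 higher (SLC16A1-AS1 and LINC01358). DESeq2 called 0 (smallest adjusted p = 0.0752). In the unadjusted tail below 0.05, voom with quality weights gave 286 higher, and leaving out control replicate 2 and CBRV1-10493 replicate 1 together gave 116 lower. With 1 library left out in turn there were 0 called, 126 to 246 higher and 155 to 299 lower at an unadjusted p under 0.05, and 9821 to 9983 intervals within 2-fold at 5 CPM or more. Other scalings moved the median of all genes by under 0.01. Of 118 genes tried, 4 changed sign: without both libraries IFI44L stood at 0.10, IFI6 at 0.032, MX1 at 0.19 and KCNMA1 at -0.016, and MX1, which ran from -1.84 to 0.078 with 1 library left out, stood at 0.078 without control replicate 2. The cause was not tested.

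Same-numbered libraries did not deviate together (correlations of -0.15, 0.039 and -0.13 across genes), so the replicate numbers were not read as a pairing. A replicate block gave 0 called genes either way, 188 higher and 191 lower at an unadjusted p under 0.05, and 10219 intervals within 2-fold against 10248 without it.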
